A study of Mus musculus with 16 samples.

Results

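The 10 genes described here encode enzymes of bile acid synthesis and conjugation: Cyp7a1, Cyp8b1, Cyp27a1, Cyp7b1, Cyp2c70, Hsd3b7, Baat, Slc27a5, Akr1d1 and Amacr. They were chosen by symbol from textbook knowledge of the pathway, and all 10 were found among the 27446 entries of the deposited table. Liver RNA was sequenced in 16 libraries of wild-type C57BL/6 mice, 8 per group. The emodin group had received emodin, an anthraquinone of rhubarb, by stomach gavage at 400 mg/kg for 3 weeks in 0.5% sodium carboxymethyl cellulose (CMC-Na), and the vehicle group had received the CMC-Na alone. The comparison addresses how the liver transcriptome responds to a dose of emodin studied for its toxicity to the liver. Age and sex were not given in the labels used here, nor was the hour at which livers were taken relative to the light cycle. The labels speak of mice and number 8 titles per group without saying that each library is a separate animal, so p-values measure the spread between these libraries.

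Hepatocytes turn cholesterol into bile acids along a classic route, which starts with 7α-hydroxylation of cholesterol by Cyp7a1, and an alternative route, which starts with side-chain oxidation by mitochondrial Cyp27a1 followed by 7α-hydroxylation by Cyp7b1. Hsd3b7 and Akr1d1 then rework the steroid ring, Cyp8b1 adds the 12α-hydroxyl group that makes cholic acid, Amacr takes part in shortening the side chain in peroxisomes, and Slc27a5 and Baat activate bile acids with coenzyme A and join them to taurine. Rodents also make muricholic acids, for which mouse liver uses Cyp2c70. In mice the pathway is held back by bile acids themselves through the receptor FXR, and Cyp7a1 is known for a strong daily rhythm and for its repression in inflammation.

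The libraries held 28683413 to 38629551 estimated counts in the vehicle group and 28292161 to 48165643 in the emodin group, with the higher mean in the latter (p = 0.0351 in an exact permutation test, two-sided, 8 livers a group). All values below are CPM, estimated counts divided by the library total times its TMM factor and brought to a common total. A value is thus a relative level and not the plain share of the library. The factors were highest in emodin 4 and 8 (1.129 and 1.162, against 0.948 to 1.044 in the vehicle group), which lowers all CPM of those livers. In a bulk sample a lower relative level cannot tell fewer cells of a type from less RNA per cell. Each of the 10 genes had at least 733 estimated counts in every liver. Hepatocyte markers were present, with the summed level of 12 such genes at 114500 to 146900 CPM in the vehicle group and 83790 to 123000 CPM in the emodin group. Most of this sum was Alb, with means of 84492 CPM in the vehicle and 59544 CPM in the emodin group. Over the 12 genes the median log2 fold change was -0.0086. Genes of the Y chromosome were present in all 16 livers (148 to 184 CPM for 4 genes together in the vehicle group and 132 to 181 CPM in the emodin group). The emodin livers were not alike. The summed level of 16 acute phase genes, which the liver switches on in inflammation, was 16660 to 20940 CPM in the vehicle group, 37040 to 64690 CPM in emodin livers 2, 4, 5 and 8, and 18900 to 25440 CPM in emodin livers 1, 3, 6 and 7, of which emodin 1 alone lay within the vehicle range. Fga, Fgb and Fgg were the largest parts of the vehicle sum (means 4035, 4052 and 3279 CPM). For Hp and Serpina3n all 8 emodin livers, emodin 1 included, lay above every vehicle liver. No other gene of the list showed this pattern, which 0.937% of all entries tested showed. Emodin livers 4 and 8 stood further apart, with 7154 and 4760 CPM for 12 pericentral genes (10610 to 14920 CPM in the vehicle group), 6678 and 7294 CPM for 12 periportal genes (9475 to 12420 CPM), and 189 and 131 CPM for 10 genes of bile duct and progenitor cells (46.1 to 77.3 CPM). Cyp2e1 was the largest part of the pericentral sum (mean 8114 CPM in the vehicle group). Spp1 was the largest part of the bile duct and progenitor sum (means 41.0 CPM in the vehicle and 58.1 CPM in the emodin group). The duct markers Krt19, Krt7 and Epcam had means of at most 1.44 CPM in either group. Emodin 4 and 8, or emodin 2, 4, 5 and 8, were also left out. Where this moved a log2 fold change of the 10 genes by over 1.5 times or changed a call, the value is given. For other named genes it is given in part, and C8b was not refitted without these livers.

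The ring-modifying enzyme gene Hsd3b7 fell in the emodin group, and it was the only one of the 10 that passed the test. None rose. Cyp7a1, Akr1d1, Baat, Cyp8b1 and Slc27a5 had lower means with emodin and Cyp7b1 a higher one, all with spreads too wide to pass, while the group means of Cyp27a1, Cyp2c70 and Amacr were close. The test was edgeR's quasi-likelihood test, with p adjusted by Benjamini-Hochberg over all 14308 entries that passed the filter and 0.05 as the threshold. Of all these entries 7.7% rose (1102) and 5.47% fell (782), 13.2% in all, against 790 higher and 996 lower in limma with quantile normalization, which changes test and scaling together, so 1 call among 10 genes (10%) is close to that background. The median log2 fold change of the 10 genes was -0.28, against 0.01 over all entries tested, and 3 of the 10 had an unadjusted p under 0.05.

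**Figure D1:**
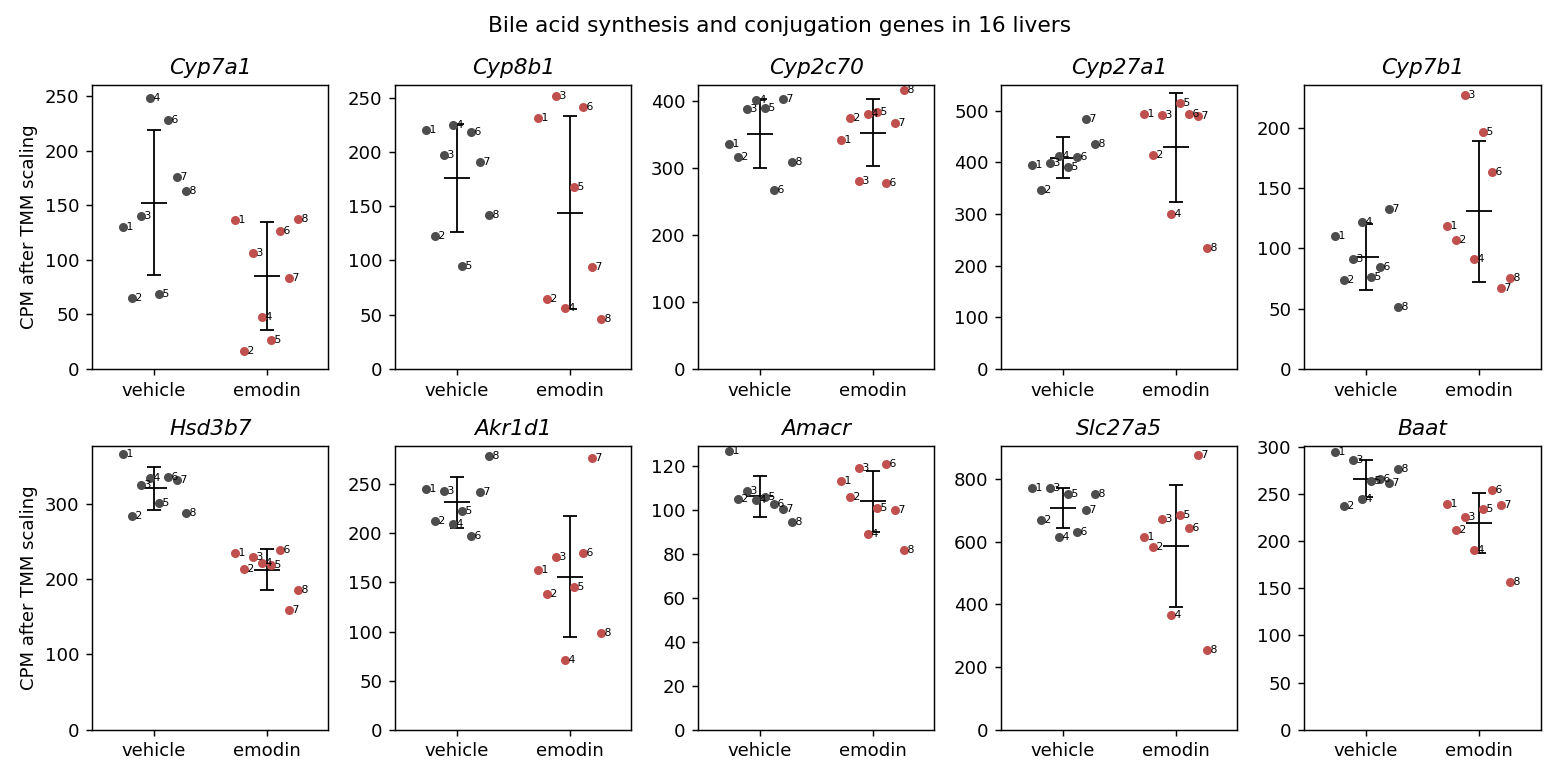
Level of each of the 10 genes in every liver, in CPM after TMM scaling (linear axes from 0), with the liver's number beside its point and bars for the mean and SD of 8 livers per group. For Hsd3b7 all 8 emodin livers lie below every vehicle liver, which no other of the 10 genes shows.

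Hsd3b7, the 3β-hydroxysteroid dehydrogenase that oxidises 7α-hydroxylated sterols in both routes, ranged from 284 CPM over a median of 328 to 367 CPM in the vehicle livers and from 159 over 221 to 239 CPM in the emodin livers. The groups did not overlap: the highest emodin liver lay below the lowest vehicle liver, a pattern that 1.03% of all tested entries showed in this direction. None of the 10 genes lay above every vehicle liver in all 8 emodin livers, as 0.937% of all entries did. The mean went from 321 ± 28.3 to 213 ± 27.4 CPM (SD, n = 8 each), a 1.51-fold fall (log2 fold change -0.59 ± 0.09, SE, edgeR adjusted p = 0.000806), and by p the gene ranked 61 of 14308. The SD was about as wide in both groups, while the coefficient of variation was 8.83% in the vehicle and 12.9% in the emodin group. Emodin livers 7 and 8 were lowest (159 and 185 CPM). Emodin 8 was among the 4 with the highest acute phase sums and emodin 7 was not. The part of inflammation in these values was not tested. Leaving out any 1 of the 16 livers did not end the call (log2 fold change -0.62 to -0.54). It also held in all 12 other alternatives (-0.60 to -0.56, adjusted p from 2.658e-09 to 0.00789 over edgeR, DESeq2, limma and rank-sum fits), those without emodin 4 and 8 or without emodin 2, 4, 5 and 8 included. One limit concerns how reads were assigned. On mm10, 62% of the exonic bases of Hsd3b7 are shared with the model Gm49388 on the same strand and 62.4% with 9430064I24Rik on the opposite strand. Gm49388 had 0 or 1 estimated count in each liver, 9430064I24Rik was not analysed here, and how shared reads were counted is not stated.

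The promoter of Hsd3b7 is shown because this is the member that fell, with those of Cyp8b1 and Cyp2c70, the pair that share the rarest of the motifs searched. Of the 10 genes, 5 were matched in the RefSeq promoter table (GRCm38.p6): these 3, Cyp27a1 and Akr1d1. Cyp7a1, Cyp7b1, Baat, Slc27a5 and Amacr were not matched. The 250 bases before each start site are written 5′ to 3′ on the gene's strand, with motif matches in capitals, from chr7:127800359-127800608 (plus strand), chr9:121916306-121916555 (minus strand) and chr19:40187287-40187536 (minus strand). The start sites are those of RefSeq. GENCODE M21 starts Hsd3b7 and Cyp2c70 further upstream, so that 5 and 47 bases of their windows, in Cyp2c70 with the TATA match, lie within the gene as GENCODE bounds it.
Hsd3b7: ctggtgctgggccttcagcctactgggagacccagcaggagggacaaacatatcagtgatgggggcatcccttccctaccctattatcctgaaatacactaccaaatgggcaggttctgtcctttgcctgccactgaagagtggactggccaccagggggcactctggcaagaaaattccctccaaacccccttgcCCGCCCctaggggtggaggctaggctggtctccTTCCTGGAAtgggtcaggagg
Cyp8b1: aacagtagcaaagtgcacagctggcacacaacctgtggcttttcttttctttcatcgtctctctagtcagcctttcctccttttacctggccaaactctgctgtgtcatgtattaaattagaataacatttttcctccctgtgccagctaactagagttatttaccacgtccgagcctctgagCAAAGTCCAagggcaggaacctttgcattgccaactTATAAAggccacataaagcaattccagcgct
Cyp2c70: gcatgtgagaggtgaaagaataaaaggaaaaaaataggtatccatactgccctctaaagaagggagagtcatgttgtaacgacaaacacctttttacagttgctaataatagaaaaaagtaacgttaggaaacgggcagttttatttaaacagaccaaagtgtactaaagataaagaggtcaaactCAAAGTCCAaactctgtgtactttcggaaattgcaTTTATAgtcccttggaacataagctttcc
The search covered 9 motif spellings on both strands, and no matches overlapped. In the Hsd3b7 window they found a GC box (GGGCGG, present in 32.7% of the 32851 promoters of the table) and a gapped STAT site (TTCNNNGAA, 7.02%), the latter from 21 to 13 bases before the start. The windows of Cyp8b1 and Cyp2c70 each held a TATA box (TATAAA, 12.4%, on the opposite strand in Cyp2c70) and the core of a site for the hepatocyte factor HNF4A (CAAAGTCCA), which 0.384% of the promoters hold. It lies from 67 to 59 bases before the start of Cyp8b1 and from 64 to 56 bases before that of Cyp2c70. The window of Cyp27a1 held CCAAT boxes (CCAAT, 33.8%) and a GC box, and that of Akr1d1 a C/EBP site (TTGCNNAA, 9.56%). The E-box (CACGTG, 6.02%), the NR5A half-site (CAAGGTCA, 1.33%) and the HNF3 core (TGTTTAC, 3.17%) had no match in the 5 windows. These are matches of letters and do not show that a factor binds there.

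Cyp7a1, the rate-limiting enzyme of the classic route, varied widely between livers of both groups. It ranged from 65.1 over a median of 152 to 249 CPM in the vehicle livers and from 16.7 over 94.5 to 138 CPM in the emodin livers. Emodin livers 2, 5 and 4 were lowest, with 16.7, 26.1 and 47.9 CPM, and lay below every vehicle liver. The other 5 emodin livers (83.0 to 138 CPM) lay within the vehicle range, and after TMM scaling all 8 were below the vehicle mean. The means were 152 ± 66.4 and 85.0 ± 49.4 CPM (log2 fold change -0.84 ± 0.42, edgeR adjusted p = 0.195), so the largest of the 10 log2 fold changes did not pass. The 3 lowest livers were among the 4 with high acute phase genes, but the remaining one of those, emodin 8, had the highest Cyp7a1 of its group. Without emodin 2, 4, 5 and 8 the log2 fold change was -0.43 (edgeR adjusted p = 0.553, over the 12 alternatives from 0.0483 to 0.553, of which 1 passed). Of 17 tested clock genes, Nr1d1, a repressor in the clock, fell (log2 fold change -0.99 ± 0.23, edgeR adjusted p = 0.0138), and Per2 and Cry2, also clock repressors, rose (0.47 ± 0.11 and 0.30 ± 0.08, 0.00928 and 0.0196), while 14 did not pass. These calls were 17.6% of the tested clock genes, against 13.2% of all entries tested. By ranks Nr1d1 did not pass (exact rank-sum adjusted p = 0.0695, with values from 0.000412 in the other alternatives). The part of daily timing or of inflammation in the spread of Cyp7a1 was not tested.

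Cyp8b1, the sterol 12α-hydroxylase, split the emodin livers to both sides of the vehicle group. The vehicle livers ranged from 95.2 over 194 to 225 CPM and the emodin livers from 46.0 over 131 to 252 CPM. Emodin livers 8, 4, 2 and 7 (46.0, 56.1, 64.0 and 94.3 CPM) were below every vehicle liver, and emodin livers 1, 6 and 3 (231, 241 and 252 CPM) were above every vehicle liver. The means of 176 ± 49.9 and 144 ± 88.9 CPM therefore describe few single livers of the emodin group (log2 fold change -0.29 ± 0.36, edgeR adjusted p = 0.623). The log2 fold change was -0.0030 without emodin 4 and 8, and its sign turned to 0.22 without emodin 2, 4, 5 and 8 (edgeR adjusted p = 0.722, over all alternatives from 0.333 to 0.997). Per exon length, Cyp8b1 was 1.87 to 4.02 times as abundant as Cyp7a1 in the vehicle livers. In the emodin livers this ratio ran from 0.716 in emodin 8 to 13.7 in emodin 5, with a median of 3.86 against 2.64. Cyp8b1 and Cyp7a1 thus did not keep a common proportion in the emodin group: emodin 8 was lowest for the former and highest for the latter.

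Cyp2c70, the enzyme for muricholic acids, had the narrowest relative spread of the P450 genes in the emodin group. It ranged from 267 over 362 to 402 CPM in the vehicle livers and from 278 over 371 to 416 CPM in the emodin livers. The groups overlapped almost wholly, with 1 emodin liver (emodin 8) above every vehicle liver. The means were 351 ± 51.1 and 353 ± 49.9 CPM (log2 fold change 0.01, 95% interval -0.21 to 0.22, edgeR adjusted p = 0.971), and the sign of so small a value turned in several alternatives. In emodin livers 4 and 8, where 8 and 7 of the 10 genes lay below every vehicle liver, Cyp2c70 had 381 and 416 CPM. These livers had the highest TMM factors, which lower their CPM. Cyp2c70 belongs to a family of similar genes, and the sharing of reads within it is not stated.

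Cyp27a1, the mitochondrial sterol 27-hydroxylase of the alternative route, was lower than in any vehicle liver in emodin livers 8 and 4 only. The vehicle livers ranged from 347 over 405 to 484 CPM, and the emodin livers from 234 over 491 to 515 CPM. Emodin livers 8 and 4 had 234 and 299 CPM, emodin 2 had 415 CPM, and the other 5, at 490 to 515 CPM, were above every vehicle liver. The means of 409 ± 39.1 and 429 ± 106 CPM did not differ beyond the spread (log2 fold change 0.07 ± 0.14, edgeR adjusted p = 0.79). Without emodin 4 and 8 the gene passed as higher (log2 fold change 0.25, edgeR adjusted p = 0.0449), as it did without emodin 2, 4, 5 and 8 (0.27, 0.0437). The adjusted p over the 12 alternatives reached 0.921, so its call depended on which livers were kept.

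Cyp7b1, the oxysterol 7α-hydroxylase, was the 1 gene of the 10 with a clearly higher mean in the emodin group, but it did not pass. It ranged from 51.5 over 87.6 to 132 CPM in the vehicle livers and from 66.8 over 113 to 227 CPM in the emodin livers. Emodin livers 3, 5 and 6 (227, 196 and 164 CPM) were above every vehicle liver, and the other 5 lay within the vehicle range. The means were 92.6 ± 27.1 and 131 ± 58.5 CPM (log2 fold change 0.50 ± 0.26, edgeR adjusted p = 0.209, from 0.129 to 0.505 over the alternatives). Per exon length the ratio of Cyp7b1 to Cyp7a1 was 0.61 to 2.18 in the vehicle livers and 1.06 to 14.5 in the emodin livers, highest in emodin 5 and 2 (14.5 and 12.3), where Cyp7a1 was lowest. Cyp7b1 is a male-biased gene in mouse liver. Of 10 other male-biased genes 0 rose in edgeR and 2 fell (3 had an unadjusted p under 0.05), Elovl3, a fatty acid elongase (log2 fold change -1.31 ± 0.30, edgeR adjusted p = 0.011), and Cyp2u1 (-0.82 ± 0.19, 0.0125), while 8 did not pass. These calls were 20% of that list, against 13.2% of all entries tested. Vehicle 8, lowest for Cyp7b1, also had the lowest summed level of that list (3580 CPM, against a vehicle median of 9290 CPM). Serpina1e and Mup20 were the largest parts of the sum (vehicle means 3762 and 3353 CPM). Without vehicle 8 the log2 fold change of Cyp7b1 was 0.41 (edgeR adjusted p = 0.299). Over all single livers left out it ran from 0.34 to 0.60. Cyp2u1 lost its call without emodin 2, 4, 5 and 8 (edgeR adjusted p = 0.128) and with array weights (limma adjusted p = 0.0533, against values from 0.000747 in other alternatives).

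**Figure D2:**
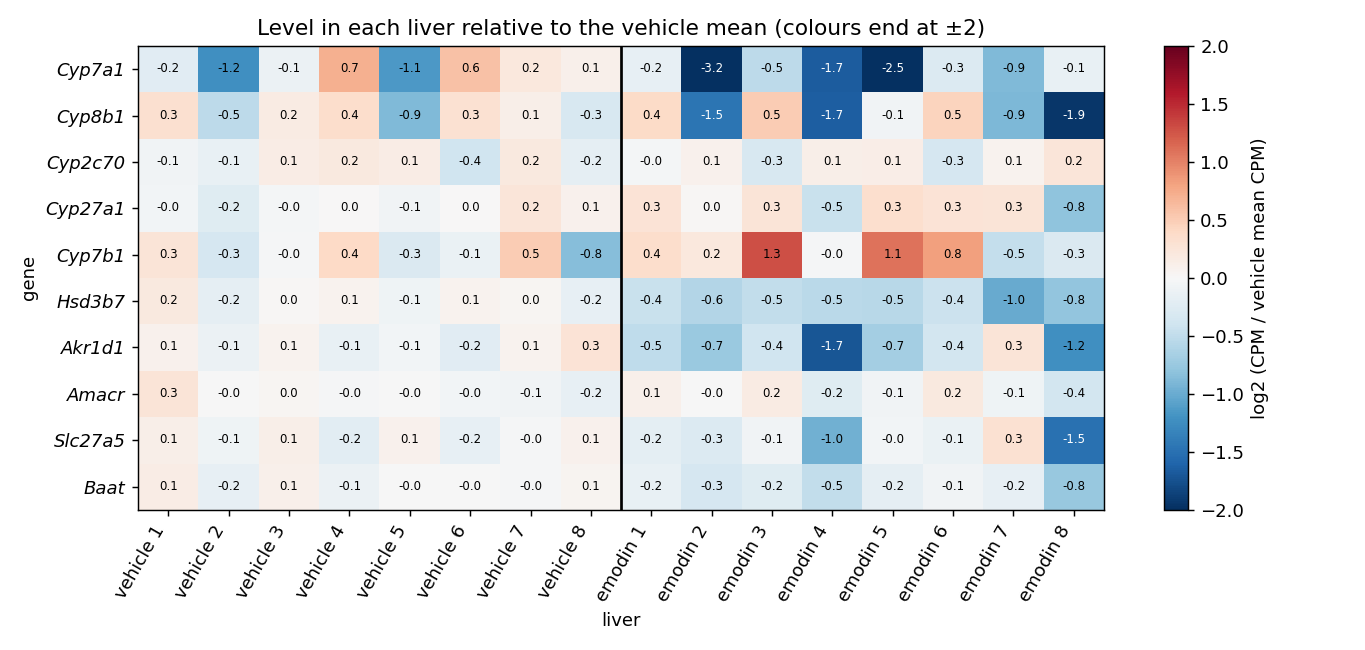
Level of each gene (rows) in each liver (columns) as log2 of its CPM over the mean CPM of the vehicle livers, printed in each cell and coloured from blue (lower) to red (higher), with colours ending at 2 either way. Emodin livers 4 and 8 are low for most genes but not for Cyp2c70, and Hsd3b7 is low in all 8 emodin livers.

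Akr1d1, the steroid 5β-reductase that gives bile acids their bent ring, had a lower mean in the emodin group and missed the threshold. The vehicle livers ranged from 198 over 232 to 279 CPM and the emodin livers from 70.7 over 154 to 276 CPM. Of the emodin livers 7 were below every vehicle liver, lowest in emodin 4 and 8 (70.7 and 98.9 CPM), and emodin 7, at 276 CPM, lay near the vehicle maximum. The means were 232 ± 26.0 and 156 ± 61.6 CPM (log2 fold change -0.57 ± 0.20, edgeR adjusted p = 0.0635). Without emodin 7 the gene passed (-0.74, edgeR adjusted p = 0.00861). It also passed in 4 of the 12 other alternatives (DESeq2, limma with array weights, total counts as scaling, and quantile normalization), with an adjusted p from 0.0253 to 0.37 over the 12. The difference was smaller without the livers that stood apart, at -0.36 without emodin 4 and 8 (edgeR adjusted p = 0.101) and -0.21 without emodin 2, 4, 5 and 8 (0.37). Its size thus depended on those livers on one side and on emodin 7 on the other.

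Amacr, the racemase that prepares the side chain for peroxisomal oxidation, was alike in both groups. It ranged from 94.6 over 105 to 127 CPM in the vehicle livers and from 81.7 over 103 to 121 CPM in the emodin livers, the lowest being emodin 8 and 4 (81.7 and 89.1 CPM). The means were 106 ± 9.4 and 104 ± 13.8 CPM (log2 fold change -0.03, 95% interval -0.20 to 0.14, edgeR adjusted p = 0.848).

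The conjugation genes had lower means with emodin, and neither passed. Baat, which joins bile acids to taurine or glycine, ranged from 237 over 265 to 294 CPM in the vehicle livers and from 157 over 230 to 255 CPM in the emodin livers. Of the emodin livers 5 were below every vehicle liver, lowest in emodin 8 (157 CPM), and all 8 were below the vehicle mean. The means were 266 ± 19.5 and 219 ± 31.8 CPM (log2 fold change -0.28 ± 0.09, edgeR adjusted p = 0.0502). The gene sat on the threshold: it passed in 8 of the 12 alternatives (adjusted p from 0.0134) and not in the other 4, the highest value being 0.209 without emodin 2, 4, 5 and 8, where the log2 fold change was -0.15 (-0.18 without emodin 4 and 8, edgeR adjusted p = 0.0801). It also passed without vehicle 2 or emodin 1, 6 or 7 (log2 fold change -0.31, -0.30, -0.31 and -0.30, edgeR adjusted p = 0.046, 0.0424, 0.0393 and 0.0427). Slc27a5, the bile acyl-CoA synthetase of the liver, ranged from 614 over 725 to 771 CPM in the vehicle livers and from 253 over 629 to 874 CPM in the emodin livers. Emodin 8 and 4 were far below the rest (253 and 365 CPM), and emodin 7 was above every vehicle liver. The means were 707 ± 63.5 and 586 ± 194 CPM (log2 fold change -0.27 ± 0.18, edgeR adjusted p = 0.338), and the log2 fold change was -0.05 without emodin 4 and 8 and -0.01 without emodin 2, 4, 5 and 8 (edgeR adjusted p = 0.762 and 0.974, over all alternatives from 0.0666).

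Per kilobase of annotated exon, Slc27a5 was the most abundant of the 10 in the vehicle livers (290 ± 26.0 CPM per kb), followed by Cyp27a1 (188 ± 18.0), Cyp2c70 (177 ± 25.8), Baat (137 ± 10.1), Hsd3b7 (116 ± 10.2), Cyp8b1 (90.4 ± 25.6), Akr1d1 (80.0 ± 8.97), Cyp7b1 (42.7 ± 12.5), Amacr (40.7 ± 3.61) and Cyp7a1 (36.5 ± 15.9). The neighbours Cyp27a1 and Cyp2c70, Hsd3b7 and Cyp8b1, Cyp8b1 and Akr1d1, and the last 3 genes differed by less than the larger SD. The value of Hsd3b7 was divided by its whole exonic length, of which 62% is shared with Gm49388. If shared reads were left uncounted, its value is too low and its place uncertain. In the emodin livers Slc27a5 still led (240 ± 79.7 CPM per kb) and Cyp7a1 was again last (20.4 ± 11.8), while Cyp7b1 (60.3 ± 27.0) had a higher mean than Akr1d1 (53.9 ± 21.3), by less than their SD. The relative spread was wider with emodin for 9 of the 10 genes. The coefficient of variation went from 8.98% to 33.1% for Slc27a5, from 11.2% to 39.5% for Akr1d1, from 9.55% to 24.7% for Cyp27a1 and from 28.3% to 61.7% for Cyp8b1, and it was about the same for Cyp2c70 (14.6% and 14.1%).

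The 10 genes did not vary as a block from liver to liver. Correlations were computed on log2 CPM after each group's mean was subtracted, over 16 livers and 45 pairs, with 100000 permutations within groups and Benjamini-Hochberg adjustment over the pairs. By Pearson's r 10 pairs passed, and by Spearman's rho 6. Slc27a5 and Akr1d1 varied together (r = 0.844, permutation p = 0.00345, adjusted 0.0211, rho = 0.862, permutation p = 0.0001, adjusted 0.0027), and r was 0.870 without emodin 8 and 4, the livers farthest from the median of Slc27a5. Cyp7b1 and Hsd3b7 had r = 0.747 (permutation p = 0.00127, adjusted 0.015) and rho = 0.656 (permutation p = 0.0113, adjusted 0.0636), with r = 0.691 without emodin 3 and 7, the farthest for Cyp7b1. The highest r, that of Cyp27a1 and Slc27a5 (0.893, permutation p = 0.00423, adjusted 0.0211, with rho = 0.685, permutation p = 0.0172, adjusted 0.0693), went to 0.578 without emodin 8 and 4, and to 0.219 when the group means were also taken without them. This relation rests on those livers. Over the 45 pairs r exceeded 0.5 in 20, and in 10 when emodin 4 and 8 were left out. Over 16 livers no pair with Cyp7a1 passed, its highest r being 0.433 with Cyp8b1 (permutation p = 0.171, adjusted 0.307, rho = 0.356, permutation p = 0.249, adjusted 0.385, and r = 0.497 without emodin 2 and 5). Here too emodin 4 and 8 weighed on the value, since r was 0.828 in the vehicle livers alone and 0.755 without emodin 4 and 8. Cyp2c70 had a negative r with each of the other 9, from -0.163 with Cyp7b1 to -0.527 with Cyp8b1 (permutation p = 0.042, adjusted 0.105, rho = -0.438, permutation p = 0.0792, adjusted 0.162, and r = -0.416 without emodin 8 and 4). None of those 9 passed after adjustment, and 4 of the 9 were at or above 0 without emodin 4 and 8 (up to 0.183, with Slc27a5). In the vehicle livers alone r ran from -0.0679 with Cyp7a1 to 0.538 with Cyp7b1. In the emodin livers alone it ran from -0.875 with Amacr to -0.398 with Cyp7a1, so the negative values came from the emodin group.

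**Figure D3:**
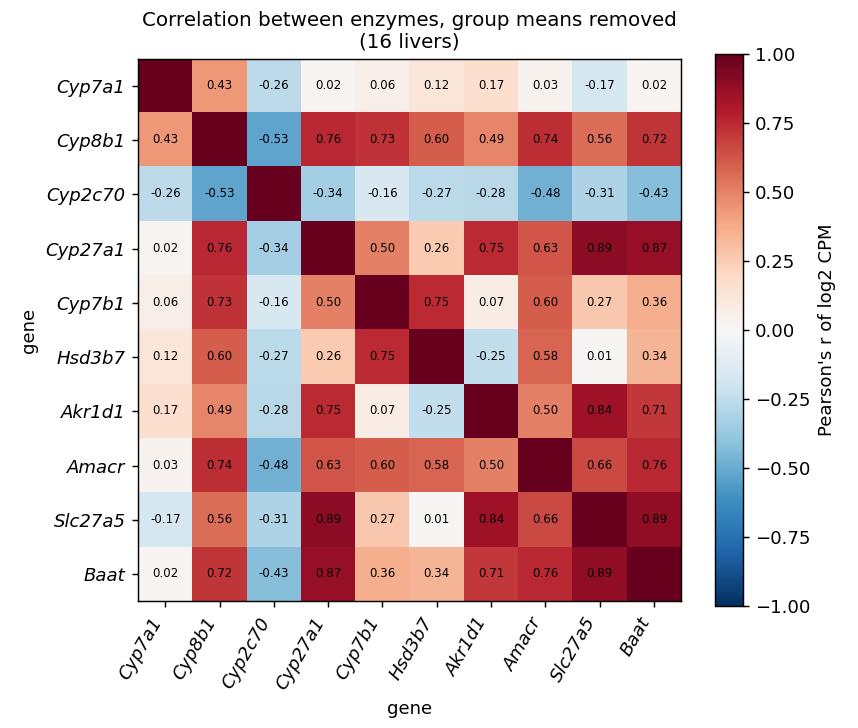
Pearson's r between each pair of the 10 genes over 16 livers, from log2 CPM with each group's mean subtracted (red positive, blue negative). The highest values (0.84 to 0.89) join Slc27a5, Baat, Cyp27a1 and Akr1d1, the Cyp7a1 row lies between -0.26 and 0.43, and the Cyp2c70 row is negative.

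Across all tested annotated genes, those most like each member over the same 16 livers (group means removed, a description without a test) were other genes than the members themselves. Cyp7a1 was most like Bmp5, Bmp10 and Dnai4 (r = 0.880, 0.863 and 0.837), Cyp8b1 like Ces3a, Ttc39c and the sterol carrier gene Scp2 (0.948, 0.942 and 0.932), and Cyp27a1 like Ipmk, Ugt2b36 and Sult2a8 (0.963, 0.948 and 0.936). Cyp7b1 was most like Mup11, C8b and C1rb (0.865, 0.851 and 0.825), and Hsd3b7 like Gtf2b, C8b and Pdilt (0.881, 0.871 and 0.860). Cyp2c70 was most like Pom121, Il6st and Rhbdd1 (0.839, 0.837 and 0.823). Baat was most like Prxl2c, Ugt2b36 and Plekhb1 (0.945, 0.943 and 0.928), and Slc27a5 like Rdh16, Acss3 and Dpyd (0.976, 0.972 and 0.970). Kynu and Dmgdh were among the genes most like Akr1d1 (0.948 and 0.943), and Amacr was most like Gpr146, Fbxo21 and Trmt9b (0.941, 0.923 and 0.922). C8b, which encodes a complement component, stood on the lists of both Cyp7b1 and Hsd3b7, and it rose with emodin while Hsd3b7 fell (log2 fold change 0.52, edgeR adjusted p = 0.00692).

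Among the other enzymes, redox partners and carriers of the pathway, 1 of 18 tested genes rose and 3 fell, while 14 did not pass (median log2 fold change -0.27). These calls were 22.2% of the tested genes of the list, against 13.2% of all entries tested. Por, the reductase that feeds electrons to Cyp7a1, Cyp8b1 and Cyp7b1, rose from 296 ± 85.8 to 579 ± 144 CPM (log2 fold change 0.97 ± 0.19, edgeR adjusted p = 0.00536), and 6 of 8 emodin livers were above every vehicle liver. Stard4, a cytosolic cholesterol carrier, fell from 143 ± 13.3 to 77.1 ± 16.1 CPM (-0.89 ± 0.11, 0.000256) and was below every vehicle liver in 8 of 8. Of all entries tested 1.03% showed that pattern. Akr1c14, the 3α-hydroxysteroid dehydrogenase that acts after Akr1d1, fell from 523 ± 69.0 to 325 ± 108 CPM (-0.69 ± 0.19, 0.0267), also below every vehicle liver in 8 of 8, and its call was lost without vehicle 3 (edgeR adjusted p = 0.05004) or emodin 2 (0.0533). Abcd3, a peroxisomal importer, fell from 615 ± 56.0 to 414 ± 106 CPM (-0.57 ± 0.14, 0.0158). The 4 calls held in all 12 other alternatives, but 2 of the falls were smaller without emodin 2, 4, 5 and 8, at -0.37 for Akr1c14 (edgeR adjusted p = 0.0387) and -0.32 for Abcd3 (0.0376), and at -0.47 and -0.40 without emodin 4 and 8 (0.0163 and 0.0118). The number of falls in the list was 5 without emodin 1 and 6 with quantile normalization, and the number of rises was 2 without emodin 8, without emodin 4 and 8, without emodin 2, 4, 5 and 8, with array weights and with total counts as scaling.

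Regulators of the pathway moved in both directions, with 4 of 15 higher, 3 lower and 8 not past the test (median log2 fold change 0.01). These calls were 46.7% of the list, against 13.2% of all entries tested, in a list chosen with earlier results of these data known. Klb, the co-receptor through which the gut hormone FGF15 represses Cyp7a1, fell from 29.1 ± 6.12 to 17.3 ± 4.67 CPM (log2 fold change -0.75 ± 0.17, edgeR adjusted p = 0.00886), and each of the 8 emodin livers had less than the lowest vehicle liver. Such a pattern was seen in 1.03% of all entries tested. Nr5a2, a nuclear receptor that activates Cyp7a1 and Cyp8b1, fell from 78.6 ± 9.65 to 60.1 ± 5.09 CPM (-0.39 ± 0.08, 0.00608). Mafg, a repressor of bile acid genes, rose from 59.6 ± 6.39 to 77.1 ± 11.2 CPM (0.37 ± 0.09, 0.0147), and Nr1i2, the xenobiotic receptor PXR, rose from 76.9 ± 11.4 to 109 ± 18.7 CPM (0.50 ± 0.11, 0.00827). Nr1h3, the oxysterol receptor LXRα, also rose (0.20, edgeR adjusted p = 0.0327), and Fgfr4, the receptor partner of Klb, fell (-0.24, 0.0309). Both lie outside the naming rule and were less stable. Nr1h3 lost its call in 3 of 12 alternatives and Fgfr4 in 6 (adjusted p up to 0.133 and 0.21, from 0.0102 and 0.0109). Single livers ended the call of Nr1h3 (vehicle 1, 2 or 7, emodin 2 or 5, edgeR adjusted p up to 0.0657) and of Fgfr4 (vehicle 1, 4, 5 or 8, emodin 2, 5 or 8, up to 0.0667). The list had 2 rises without emodin 2, 4, 5 and 8. The bile acid sensor FXR (Nr1h4) and its target Nr0b2, named outside the rule for their place in the pathway, did not pass. Nr1h4 had 134 ± 21.1 and 135 ± 20.4 CPM (0.01 ± 0.11, edgeR adjusted p = 0.952) and Nr0b2 17.8 ± 5.44 and 17.3 ± 8.37 CPM (-0.04 ± 0.29, 0.943).

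Of 13 bile acid and biliary lipid transporter genes 0 rose in edgeR and 1 fell (median log2 fold change -0.28, 5 with an unadjusted p under 0.05). This call was 7.69% of the list, against 13.2% of all entries tested. Abcb11, the bile salt export pump, fell from 571 ± 80.7 to 332 ± 99.2 CPM (log2 fold change -0.78 ± 0.16, edgeR adjusted p = 0.00687), and 7 of 8 emodin livers were below every vehicle liver. The fall was -0.60 without emodin 4 and 8 and -0.46 without emodin 2, 4, 5 and 8 (edgeR adjusted p = 0.00665 and 0.0254). DESeq2, total counts as scaling and quantile normalization each called 3 transporter genes lower. The count was 2 without emodin 1, without emodin 7, with array weights, by ranks and with the replicate number as a block.

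Among markers of other cells, those of lymphocytes were lower in mean with emodin in all 9 tested genes (median log2 fold change -0.88), of which 1 fell in edgeR and 5 had an unadjusted p under 0.05. Their summed level ran from 6.06 to 17.4 CPM in the vehicle and from 3.31 to 7.63 CPM in the emodin livers, so these are low levels. Of the other tested markers 0 of 10 macrophage, 0 of 3 neutrophil, 0 of 10 stellate or fibroblast and 0 of 8 biliary genes passed in edgeR (1, 0, 1 and 1 with an unadjusted p under 0.05), and 1 of 10 endothelial genes fell (3 with an unadjusted p under 0.05). Of 12 pericentral genes 1 fell, of 12 periportal genes 3 rose and 1 fell, and of 12 hepatocyte genes 1 rose and 1 fell. The hepatocyte gene that rose was Fgb, which is also among the acute phase genes, and Alb was the gene that fell. The summed macrophage markers ran from 170 to 770 CPM in the vehicle and from 250 to 668 CPM in the emodin livers, neutrophil markers from 1.15 to 5.6 and from 2.37 to 7.26 CPM, endothelial markers from 204 to 303 and from 191 to 279 CPM, and stellate and fibroblast markers from 197 to 453 and from 156 to 309 CPM. Of 16 acute phase genes 13 rose. Over all entries tested 7.7% rose and 5.47% fell. Of 4 tested genes of the Y chromosome and 4 tested female-biased genes 0 passed in edgeR (0 and 1 with an unadjusted p under 0.05). The part of cell composition or inflammation in the values of the 10 genes was not tested.

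On mm10, with GENCODE M21 as annotation, all 10 are protein-coding genes. Cyp7a1 lies on chromosome 4 from 6265612 to 6275633, Baat on chromosome 4 from 49489422 to 49506557, Cyp27a1 on chromosome 1 from 74713574 to 74737892, and Cyp7b1 on chromosome 3 from 18071950 to 18243338. Akr1d1 lies on chromosome 6 from 37530173 to 37568815, Slc27a5 on chromosome 7 from 12988346 to 12998192, and Hsd3b7 on chromosome 7 from 127800604 to 127803802. Cyp8b1, which has 1 exon, lies on chromosome 9 from 121914356 to 121916305, Amacr on chromosome 15 from 10981756 to 10996626, and Cyp2c70 on chromosome 19 from 40153353 to 40187333.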

How the data were processed

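The deposited table gives estimated counts per gene for 16 liver libraries, as whole numbers (0 values were not whole). Its name says FPKM, but totals differ between libraries and the values were not divided by depth or gene length. They were read as estimated counts from the values alone, and rounding changed none. The submitters' processing notes list mm10 as build, and as tools HISAT2, cutadapt (1.9.1), Cufflinks (2.2.1), HTSeq (0.6.1) and SAMtools (0.1.19), without their roles. The annotation and the strand setting are not given in the sources used here. Each library took 1 µg of RNA, per the labels. All 16 value columns were used.

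The test of each entry ran in R 4.3.3 with edgeR 4.0.16: filterByExpr kept 14308 of 27446, TMM factors ran from 0.93 to 1.16, and the robust quasi-likelihood F test had group as its single term, with Benjamini-Hochberg adjustment. SE is the absolute log2 fold change over the square root of F, and 95% intervals are 1.96 SE either way. Scripts were tested on simulated data. Alternatives to the edgeR fit were DESeq2 1.42.0, limma 3.58.1 with array weights or with quantile normalization (each changing the test as well), exact rank-sum tests, other scalings and filters, the replicate number as a block, and livers left out. "12 alternatives" counts these without the 16 single livers left out. Named by rule were the 10 genes, up to 4 called genes of each list with the smallest p, and up to 3 genes most like each member. Marker lists are given by counts and sums. Alb, Fga, Fgb, Fgg, Cyp2e1, Spp1, Serpina1e and Mup20 were named for their part in sums or counts. Nr1h3, Fgfr4, Nr1h4, Nr0b2, Krt19, Krt7 and Epcam were named after their values were seen. The members and all lists were chosen with earlier results of these data known. Xist was not analysed here, and a few results that the rules would name are not reported here.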

Additional observations from a re-analysis of the deposited data

Results flagged for a closer look

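In 30 sets of values (10 genes and 5 library measures, in 2 groups of 8 livers), 1 had a liver far from the others by Dixon's gap test at the 95% level, which chance gives in about 1 of 20 sets. It was Amacr in vehicle 1, at 127 CPM (126.8) against 108.5 CPM in the next highest vehicle liver. Without vehicle 1 the log2 fold change of Amacr was 0.02 in place of -0.03, and the gene did not pass either way (edgeR adjusted p = 0.923 and 0.848, over its other alternatives from 0.488).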

How the results depend on the processing

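Hsd3b7 kept its call in all 12 alternatives and without any 1 of the 16 livers. The count of members called lower was 1, and it was 3 with DESeq2, array weights, total counts as scaling and quantile normalization (Akr1d1 and Baat joining), and 2 with the rank-sum test, RLE scaling, scaling without the 50 most abundant entries, only Ensembl genes (each with Baat) and the replicate block. It ran from 1 to 3 with single livers left out. The count called higher was 0, and 1 (Cyp27a1) without emodin 2, 4, 5 and 8 and without emodin 4 and 8. The first set holds the livers with the highest acute phase sums in these same data, and the second was chosen after the data were seen. Over all entries, 1102 were called higher and 782 lower. The replicate block gave 628 higher, and leaving out emodin 2, 4, 5 and 8 gave 573 higher and 435 lower, with 4 fewer livers. With single livers left out, entries called higher ran from 709 (without emodin 4) to 1333 (without emodin 7) and entries called lower from 521 (without emodin 2) to 903 (without emodin 1). The titles do not say that equal replicate numbers mark a shared cage or day. Same-numbered livers correlated from -0.149 to 0.245 after group means were removed, and 1 of 8 pairs was over 0.1. Of 8 vehicle livers, 2 correlated best with the emodin liver of their own number. Low correlations cannot exclude a shared cage or day. With the block, 2 transporter genes were called lower in place of 1, and Cyp7a1 passed (log2 fold change -1.02, edgeR adjusted p = 0.0483, over its alternatives up to 0.553).

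Small values changed sign. Cyp2c70 had -0.10 with array weights, -0.0041 with only Ensembl genes, -0.14 without emodin 2, 4, 5 and 8, -0.048 without emodin 4 and 8, and -0.042 to 0.061 with single livers left out. Amacr had 0.052 with array weights, 0.10 without emodin 2, 4, 5 and 8, 0.061 without emodin 4 and 8, and -0.054 to 0.016 with single livers left out. Cyp8b1 had 0.22 without emodin 2, 4, 5 and 8. Nr0b2 had 0.11 without emodin 4 and 8. With single livers left out, Nr0b2 ran from -0.19 to 0.079 and Nr1h4 from -0.038 to 0.071. Over the 12 alternatives Nr1h4 ran from 0.0031 to 0.15. The cause was not tested.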
